A study of Mus musculus with 2 samples.

Results

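The 10 genes *Ccnd1*, *Ccnd2*, *Ccnd3*, *Ccne1*, *Ccne2*, *Cdk2*, *Cdk4*, *Cdkn1a*, *Cdkn1b* and *Cdkn2c* encode cyclins, kinases and kinase inhibitors of the G1 phase of the cell cycle. They were taken by gene symbol from a table of 45777 genes measured in mouse liver, and all 10 were found there. The livers came from C57BL/6 mice, given as C57BL/6 N in the paper. The mice were 7 weeks old when a high-fat diet began and stayed on it for 18 weeks. At week 13, an adeno-associated virus was given retro-orbitally. It carried GFP in the control group (AAV-GFP) and the long noncoding RNA *Wee1-AS* in the other (AAV-*Wee1-AS*). The diet and the viral transduction were thus shared by both groups. The AAV-*Wee1-AS* vector was of serotype 9 with the CMV promoter, which is not restricted to hepatocytes. Poly-A RNA was sequenced, and 1 library per group was analysed here. No test between the groups is therefore possible, no spread between mice is known, and the values compare 2 libraries. The submitters' design text mentions 4 liver samples. Whether a library held RNA of a single mouse or of several, and the sex of the mice, are not given in the sources used here.

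Progression through G1 depends on D-type cyclins, which respond to growth signals and activate the kinases CDK4 and CDK6, and on E-type cyclins, which activate CDK2 near the start of DNA synthesis. Both kinase complexes phosphorylate the retinoblastoma protein and its relatives and thereby release E2F transcription factors. CIP/KIP inhibitors such as p21 and p27 bind cyclin and kinase complexes, whereas INK4 inhibitors such as p18 bind CDK4 and CDK6 alone. Most hepatocytes of an adult liver rest outside the cycle and re-enter it after injury or loss of tissue.

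The control library held 55466182 estimated counts, and 48079335 were assigned with AAV-*Wee1-AS*. Across 15105 genes the log2 ratio between the libraries was related to the GC content of the transcript, with a Spearman coefficient of -0.67 over genes, which are not independent replicates. Each member is therefore also given with the dependence on GC content and length taken out. The 6 hepatocyte markers *Alb*, *Apoa1*, *Ttr*, *Cyp2e1*, *Hnf4a* and *Cps1* summed to 76384 TPM (a level per transcript length that sums to the same total in each library) with AAV-GFP and 86023 with AAV-*Wee1-AS*. The higher sum rested on *Alb* (37459 and 53289 TPM), while 3 of the 6 were lower and *Cps1* had a log2 ratio of 1.21, or 0.44 with GC content and length taken out. The macrophage list summed to 213 and 168 TPM, with 4 of 6 markers lower. Within it *Trem2* had a log2 ratio of -2.08 and *Marco* one of 1.60. These 2 of 6 were past 2-fold in opposite directions, against 31.0% of all genes. With GC content and length taken out they were -2.155 and 2.215, again 2 of 6 past 2-fold, against 15.9% of all genes. The stellate cell and fibroblast list summed to 109 and 117 TPM, a sum made up mostly of *Dcn* (74.2 and 92.0 TPM), and 4 of its 6 markers were past 2-fold, against 31.0% of all genes. *Col1a1* and *Pdgfrb* had log2 ratios of -2.32 and -1.09, and *Rgs5* and *Lrat* had 1.58 and 1.46. With GC content and length taken out these were -2.01, -0.89, 0.28 and 0.054, *Dcn* was at -1.17, and 2 of the 6 were past 2-fold, against 15.9% of all genes. The endothelial list summed to 130 and 106 TPM, the cholangiocyte list to 44.1 and 37.9, the T and NK cell list to 3.83 and 2.49, the B cell list to 3.91 and 3.14, the neutrophil list to 13.03 and 6.18, the erythroid list to 2037 and 1100 and the adipocyte list to 16.2 and 16.9. The erythroid list had a median log2 ratio of -0.89, or -0.078 with GC content and length taken out, and that of the neutrophil list was -1.31, or -1.64. The cholangiocyte sum was made up mostly of *Spp1* (40.4 and 34.3 TPM), and of its 5 markers 2 were higher and 3 lower. The adipocyte sum was nearly all *Cfd* (16.2 and 16.8 TPM). The defining markers *Ly6g* of neutrophils and *Lep* of adipocytes were at 0 in both libraries, and the B cell marker *Ms4a1* was at 0 with AAV-GFP. In bulk liver, fewer cells of a type and less RNA per cell cannot be told apart, and the part of the cell makeup in the results below was not tested.

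Of the 10 members, *Cdkn1a* was below 0.5-fold and *Ccne2* above 2-fold in AAV-*Wee1-AS* relative to AAV-GFP, and the other 8 lay between these limits. *Cdk4*, *Ccnd1* and *Ccnd3*, the abundant kinase and cyclins of early G1, had log2 ratios of -0.79, -0.77 and -0.58. *Cdkn2c* was lower by 1.47-fold, *Ccnd2* was higher by 1.53-fold, and the counting intervals of *Ccne1*, *Cdk2* and *Cdkn1b* held an equal level. The share of members past 2-fold was 20%, and it was 31.0% among all 15857 genes that reached 10 counts in either library. Ratios above 2 made up 22.2% of all genes and ratios below 0.5 made up 8.71%. The median log2 ratio was -0.37 over the members and -0.016 over all genes. The 95% counting interval of the ratio lay wholly below an equal level for 5 members, against 38.0% of all genes, and wholly above it for 2, against 39.1%. These intervals cover counting error only, since they hold neither the spread between mice nor the copying of reads by PCR.

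**Figure D1:**
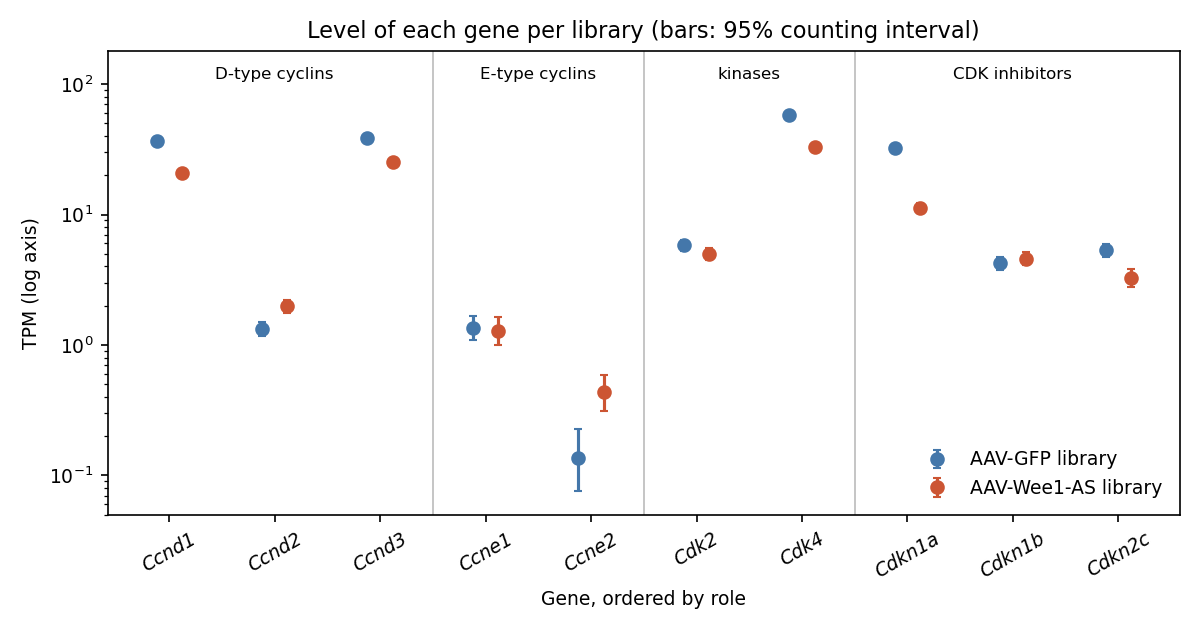
TPM (log axis) of each gene in the AAV-GFP library (blue) and the AAV-*Wee1-AS* library (orange), by role, with 95% counting intervals as bars. *Cdk4*, *Ccnd3*, *Ccnd1* and *Cdkn1a* sit above 10 TPM in both libraries, and *Cdkn1a* shows the widest gap among them, from 32.4 to 11.3 TPM.

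Compared per length, the order of levels was led in both libraries by the same 5 genes. *Cdk4* had 57.4 TPM with AAV-GFP, followed by *Ccnd3* with 38.7, *Ccnd1* with 36.3, *Cdkn1a* with 32.4 and *Cdk2* with 5.80. In AAV-*Wee1-AS*, these levels were 32.9, 25.3, 20.9, 11.3 and 4.98 TPM. With AAV-GFP the counting intervals overlapped between the neighbours *Ccnd3* and *Ccnd1*, *Cdk2* and *Cdkn2c*, *Cdkn2c* and *Cdkn1b*, and *Ccne1* and *Ccnd2*. With AAV-*Wee1-AS* they overlapped only between *Cdk2* and *Cdkn1b*. *Cdkn1b* stood above *Cdkn2c* and *Ccnd2* above *Ccne1* in that library, the reverse of their order in the other. The summed level of all 10 genes was 183 TPM with AAV-GFP and 107 TPM with AAV-*Wee1-AS*. The TPM values, their order and their sums still hold the trend with GC content.

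*Cdkn1a* encodes p21, a CIP/KIP inhibitor that is induced by p53 and that restrains CDK2. It had 2044 estimated counts with AAV-GFP and 602 with AAV-*Wee1-AS*. After scaling of the libraries these were 36.1 and 12.8 CPM. The control library was the higher of the pair by 2.82-fold, a log2 ratio of -1.50 with a 95% counting interval of -1.63 to -1.37, and this was the only member whose interval lay wholly past 2-fold. Of all genes, 19.8% had an interval wholly past 2-fold, and 3.72% had it wholly below 0.5-fold. The GC content of its longest transcript was 54.4%. In the group of 1511 genes with a GC content of 53.5% to 55.4%, the median log2 ratio was -0.50 and 11.9% of genes were below 0.5-fold. With the trends with GC content and length removed, the log2 ratio of *Cdkn1a* was -0.91, short of 2-fold.

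The locus of *Cdkn1a* (chromosome 17, 29090979 to 29100722, mm10) holds transcripts from 2 start sites. The downstream start at 29093769 gives the transcript NM_007669, with 1903 counts under AAV-GFP and 602 under AAV-*Wee1-AS*. The upstream start at 29090979 gives NM_001111099, with 141 counts and 0. In the AAV-GFP library the upstream transcript thus made up 6.90% of the gene's counts (exact 95% interval 5.84% to 8.08%). With AAV-*Wee1-AS* it was 0 of 602, and the same exact interval reaches 0.611%, while a limit of 3 counts gives 0.498%. It was at least 39.15-fold lower against a floor of 3 counts. The downstream transcript alone had a log2 ratio of -1.39 (-1.53 to -1.26). Counts were shared out between overlapping transcripts by estimation, so the value of 0 belongs to that estimate. The intervals of the shares hold no error of that step.

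The 250 bases before each start are shown because the transcripts of the 2 starts differed between the libraries. They were read from RefSeq on GRCm38.p6, the assembly of mm10, on the + strand. Capitals in the upstream window (chr17:29090729-29090978) mark a p53 response element of 20 letters at chr17:29090928-29090947, 51 bases before the start. Capitals in the downstream window (chr17:29093519-29093768) mark the GC box and the TATA element, searched as GGGCGG and as TATAA.
Upstream start of *Cdkn1a*: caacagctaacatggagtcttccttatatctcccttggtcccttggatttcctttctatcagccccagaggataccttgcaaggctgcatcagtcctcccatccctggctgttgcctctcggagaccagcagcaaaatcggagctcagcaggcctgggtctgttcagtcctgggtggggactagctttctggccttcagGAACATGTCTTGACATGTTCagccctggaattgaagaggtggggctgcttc
Downstream start of *Cdkn1a*: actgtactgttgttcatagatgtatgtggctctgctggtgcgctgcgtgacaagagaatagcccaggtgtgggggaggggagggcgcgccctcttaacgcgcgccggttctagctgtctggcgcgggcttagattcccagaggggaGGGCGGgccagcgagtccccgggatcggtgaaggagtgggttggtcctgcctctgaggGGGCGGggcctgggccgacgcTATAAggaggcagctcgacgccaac
The p53 element was searched as 2 adjoining half-sites of the known p53 consensus, which reads alike on both strands, with at most 1 letter off, and the match has 1 letter off. Such a match was found in 0.0761% of 32851 RefSeq windows of this length, and in no other window of the 7 members matched in the RefSeq promoter table (*Ccnd1*, *Ccnd2* and *Ccne2* were not matched). The downstream window had 2 GC boxes and 1 TATA element. The GC box, searched on both strands, was found in 32.7% of all windows, and the TATA element, on the gene's strand, in 16.0%. A match describes letters and not binding.

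**Figure D2:**
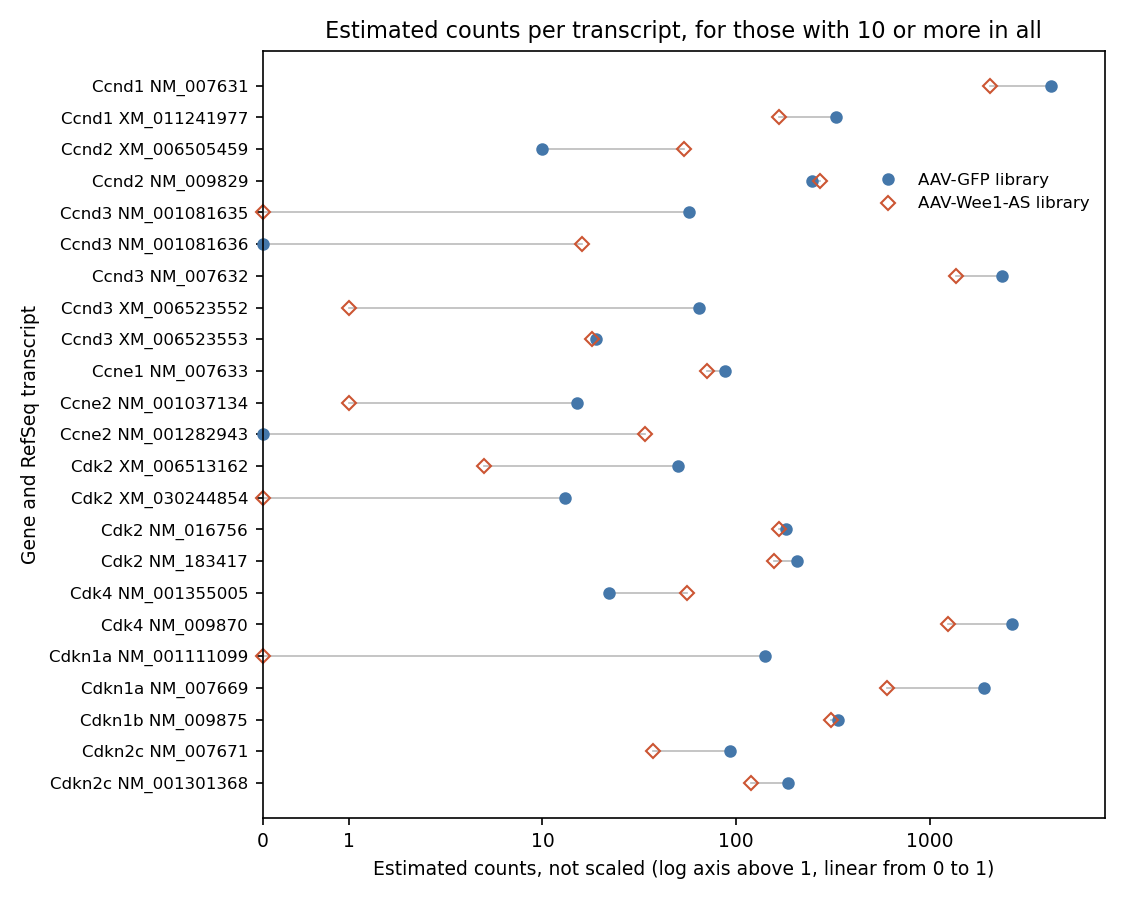
Estimated counts (unscaled, log axis above 1) of each member transcript with at least 10 counts over both libraries, AAV-GFP as filled circles and AAV-*Wee1-AS* as open diamonds. The upstream *Cdkn1a* transcript NM_001111099 lies at 141 and 0 counts, and transcripts of *Ccnd3*, *Ccne2* and *Cdk2* also lie at 0 in a library.

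The p53 list that was set beside *Cdkn1a* was mixed in direction. Of its 18 genes, 6 were above 2-fold and 3 below 0.5-fold, against 22.2% and 8.71% of all genes. The median log2 ratio was 0.32 (-0.015 with the GC and length trends removed). *Trp53*, which encodes p53, had 1420 and 648 counts, a log2 ratio of -0.87, or -0.47 with both trends removed. *Mdm2*, the ubiquitin ligase that p53 induces and that degrades it, had 205 and 897 counts and a log2 ratio of 2.38 (2.17 to 2.62), which was 1.89 after removal. *Trp53inp1*, a p53-induced stress gene, had a log2 ratio of 2.75, which was 1.17 after removal. *Sesn1*, a sestrin, had one of 1.43 and kept 1.36. *Rrm2b*, a ribonucleotide reductase subunit, had one of 1.75, which was 0.31 after removal. Lower levels were found for *Tnfrsf10b*, a TRAIL death receptor, with a log2 ratio of -2.20 (-2.31 after removal). *Phlda3*, an inhibitor of AKT, had one of -1.62, which was -0.81 after removal and no longer past 2-fold. In all, 8 of the 18 genes were lower, as *Cdkn1a* was, and 10 of the 18 were lower with the trends removed, when 4 were past 2-fold, against 15.9% of all genes with a GC value.

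*Cdkn1b* encodes p27, the CIP/KIP inhibitor that is abundant in resting cells. It had 335 counts with AAV-GFP and 309 with AAV-*Wee1-AS*, from the single transcript listed (chromosome 6, 134920401 to 134925525). The log2 ratio was 0.15 (-0.08 to 0.37), so no difference was detectable at this depth. Its GC content depended on the transcript taken. It was 43.1% for the longest GENCODE transcript, in a group of genes whose median log2 ratio was 1.12, and 45.8% for the GENCODE transcript matched to the deposited one. The log2 ratio with the trends removed was -0.98 with the former and -0.45 with the latter. The level of *Cdkn1a* was 7.68 times that of *Cdkn1b* in TPM with AAV-GFP and 2.45 times with AAV-*Wee1-AS*. These TPM values still hold the trend with GC content, and the GC group of *Cdkn1a* had a median log2 ratio of -0.50. With the trends removed *Cdkn1a* was at -0.91 with the longest transcript, beside -0.98 for *Cdkn1b*. With the matched transcript the 2 values were -0.95 and -0.45.

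*Cdkn2c* encodes p18, an INK4 inhibitor of CDK4 and CDK6. Its counts were 278 with AAV-GFP and 157 with AAV-*Wee1-AS*, a log2 ratio of -0.56 (-0.85 to -0.27). Of its transcripts (chromosome 4, 109660876 to 109666756), the shorter NM_007671 had 93 and 37 counts and the longer NM_001301368 had 185 and 120. The shorter made up 33.5% of the counts (27.9% to 39.3%) with AAV-GFP and 23.6% (17.2% to 31.0%) with AAV-*Wee1-AS*, and these exact intervals overlap. They hold no error of sharing counts between the transcripts. The GC content of 58.0% put the gene in the highest of 10 groups, where the median log2 ratio was -0.69. With both trends removed the log2 ratio was 0.17, on the other side of an equal level.

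The 3 inhibitors summed to 41.9 TPM with AAV-GFP and 19.1 TPM with AAV-*Wee1-AS*. *Cdkn1a* made up 77.3% of that sum in the control library and 58.8% in the other. These shares still hold the trend with GC content. With the trends removed the log2 ratios of *Cdkn1a*, *Cdkn1b* and *Cdkn2c* were -0.91, -0.98 and 0.17. They were -0.95, -0.45 and 0.12 with GC content from the matched transcript. Of the inhibitors outside the chosen genes, *Cdkn2d* had 4.10 TPM with AAV-GFP, close to *Cdkn1b* with 4.22. With AAV-*Wee1-AS* it had 2.81 TPM, close to *Cdkn2c* with 3.29. *Cdkn1c*, *Cdkn2a* and *Cdkn2b* were scarcer, with 2.15, 1.09 and 0.32 TPM with AAV-GFP and 0.88, 0.49 and 0.33 with AAV-*Wee1-AS*. *Cdkn1c*, which encodes p57, had 140 and 49 counts, *Cdkn2d* (p19) had 172 and 99, *Cdkn2a* had 31 and 13 and *Cdkn2b* had 15 and 13. *Cdkn1c* was the only one of these 4 past 2-fold, against 31.0% of all genes, with a log2 ratio of -1.22 (-1.75 to -0.77) that became -0.41 with the trends removed.

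**Figure D3:**
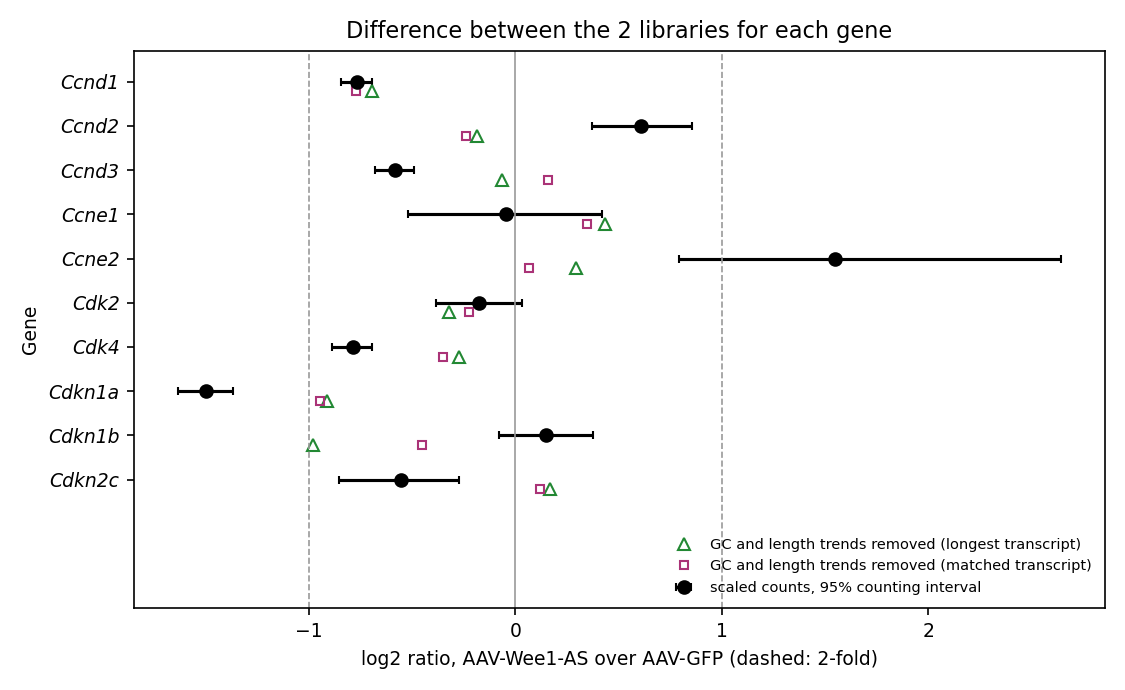
Log2 ratio of AAV-*Wee1-AS* over AAV-GFP for each gene from scaled counts (black, 95% counting interval as bars), and with trends with GC content and length removed, taking GC content from the longest transcript (triangles) or the matched transcript (squares). *Cdkn1a* and *Ccne2* lie past the dashed 2-fold lines only before removal, and *Ccnd1* moves least.

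The D-type cyclins were led by *Ccnd1* and *Ccnd3*. *Ccnd1* encodes cyclin D1, the growth-induced cyclin of hepatocytes that re-enter the cycle. It had 4545 counts with AAV-GFP and 2220 with AAV-*Wee1-AS*, a log2 ratio of -0.77 (-0.84 to -0.70). Both of its transcripts (chromosome 7, 144929931 to 144939937) were lower, NM_007631 with 4217 and 2053 counts and XM_011241977 with 328 and 167. The gene overlaps *LTO1* on the opposite strand by 818 bases, and *LTO1* had 456 and 410 counts. The GC content was 50.9%, near the median of 49.8% over all genes, and the median log2 ratio of its GC group was -0.12. With both trends removed the value was -0.70, or -0.77 with GC content from the matched transcript. Among the 12 alternative settings tried, the log2 ratio of *Ccnd1* ranged from -0.98 to -0.70.

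*Ccnd3*, cyclin D3, had 2511 counts with AAV-GFP and 1394 with AAV-*Wee1-AS*. The log2 ratio was -0.58 (-0.68 to -0.49). The gene spans 47505051 to 47599689 of chromosome 17, and its transcript NM_007632, from the downstream start at 47593467, held 94.4% of the counts with AAV-GFP and 97.5% with AAV-*Wee1-AS*. Of the transcripts from the far upstream start, NM_001081635 had 57 and 0 counts and NM_001081636 had 0 and 16. The predicted transcript XM_006523552, from a start at 47594296, had 64 and 1. The GC content of *Ccnd3* was 56.7%, and with the trends removed the log2 ratio was -0.07, or 0.16 with GC content from the matched transcript. The gene overlaps *Bysl* on the opposite strand by 359 bases, and *Bysl* had 1284 and 727 counts. The paper lists dUTP among the components of the cDNA library preparation. Whether strand was then used in counting is not given in the sources used here. This concerns *Ccnd3* and also *Ccnd1*, *Ccnd2*, *Cdk2*, *Cdk4* and *Ccne2*, which overlap genes on the opposite strand.

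*Ccnd2*, cyclin D2, was scarce in these livers. It had 255 counts and 325, a log2 ratio of 0.61 (0.37 to 0.86), which made it the only D-type cyclin with a higher level in AAV-*Wee1-AS*. The curated transcript NM_009829 (chromosome 6, 127125708 to 127151048) had 245 and 271 counts, and the predicted transcript XM_006505459 had 10 and 54. The curated transcript alone had a log2 ratio of 0.41 (0.15 to 0.66). With a GC content of 47.1% the gene lay in a group with a median log2 ratio of 0.49, and its value was -0.19 with the trends removed. The D-type cyclins summed to 76.3 TPM with AAV-GFP and 48.2 TPM with AAV-*Wee1-AS*. *Ccnd1* made up 47.6% of this sum in the control library and 43.4% in the other, *Ccnd3* 50.7% and 52.5%, and *Ccnd2* 1.75% and 4.11%. These shares still hold the trend with GC content.

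*Cdk4*, the kinase partner of the D-type cyclins, had the highest TPM of the 10 genes, whereas *Ccnd1* had more counts. *Cdk4* had 2684 counts with AAV-GFP and 1293 with AAV-*Wee1-AS*, a log2 ratio of -0.79 (-0.89 to -0.69). Its main transcript NM_009870 had 2662 and 1237 counts, whereas the shorter NM_001355005 had 22 and 56. The shorter transcript made up 0.820% of the counts (exact 95% interval 0.514% to 1.24%) in the control library and 4.33% (3.29% to 5.59%) in the other. These intervals do not overlap, but they hold neither the error of sharing counts between overlapping transcripts nor the spread between mice. A difference in transcript use was thus not tested. The GC content was 53.3%, and the log2 ratio with the trends removed was -0.28.

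The 250 bases before the start of *Cdk4* (chr10:127063285-127063534, + strand, RefSeq, GRCm38.p6) are shown because CACGTG, the E-box that MYC and its relatives can bind, stands in them 4 times, in capitals.
Start of *Cdk4*: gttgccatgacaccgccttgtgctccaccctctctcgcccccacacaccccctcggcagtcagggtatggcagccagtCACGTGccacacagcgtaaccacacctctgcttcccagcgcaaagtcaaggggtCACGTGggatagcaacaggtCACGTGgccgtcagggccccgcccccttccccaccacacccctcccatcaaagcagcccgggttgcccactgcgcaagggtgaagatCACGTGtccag
The first letters of these E-boxes lie 172, 118, 98 and 11 bases before the start. CACGTG reads alike on both strands, and at least 1 was found in 6.02% of all RefSeq windows of this length. No other window of the 7 matched members held it. *Myc* had 227 and 140 counts, a log2 ratio of -0.43 (-0.75 to -0.12), and 0.053 with the trends removed.

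*Cdk2*, the partner of the E-type cyclins, had 448 counts and 330. The log2 ratio was -0.18 (-0.39 to 0.03), and the counting interval held an equal level. It was -0.32 after removal of the trends. Most counts fell on NM_016756, with 180 and 166, and NM_183417, with 205 and 156. The predicted transcripts XM_006513162 and XM_030244854 had 50 and 5 counts and 13 and 0 counts, and with curated transcripts only the log2 ratio of *Cdk2* was 0.047. The gene (chromosome 10, 128697938 to 128705051) overlaps *Pmel* on the opposite strand, which had 30 and 22 counts. *Cdk4* had 9.90 times the TPM of *Cdk2* with AAV-GFP and 6.60 times with AAV-*Wee1-AS*, values that still hold the trend with GC content. With the trends removed the log2 ratios of *Cdk4* and *Cdk2* were -0.28 and -0.32. They were -0.35 and -0.22 with GC content from the matched transcript.

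The E-type cyclins had the lowest counts of the members. *Ccne1*, cyclin E1, had 88 counts with AAV-GFP and 71 with AAV-*Wee1-AS* on a single transcript (chromosome 7, 38097984 to 38107490). Its log2 ratio of -0.045 had an interval from -0.52 to 0.42, so that no difference was detectable at this depth. With the trends removed the value was 0.43, on the other side of an equal level. *Ccne2*, cyclin E2, had 15 and 40 counts, a log2 ratio of 1.55 (0.79 to 2.64). This interval was not wholly past 2-fold.

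The estimated counts of *Ccne2* lay on different transcripts of the locus (chromosome 4, 11190433 to 11204779) in the 2 libraries. Counts were shared out between overlapping transcripts by estimation, and a change of transcript was not tested. All 15 counts of the control library lay on NM_001037134, which had 1 count with AAV-*Wee1-AS*. There 34 of the 40 counts lay on NM_001282943, which had 0 in the control library. Another 4 transcripts had 1 or 2 counts there. The level of the gene was 0.137 and 0.434 TPM. The gene overlaps *Ints8*, on the opposite strand, by 5622 bases, and *Ints8* had 175 and 517 counts, a log2 ratio of 1.81. It also overlaps *A630034I12Rik*, which had 6 and 105 counts. *Ccne2* had the lowest GC content of the members, 36.3%, and 65.3% of the 1511 genes of its GC group were above 2-fold, with a median log2 ratio of 1.43. With the trends removed the value was 0.29, or 0.065 with GC content from the matched transcript.

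**Figure D4:**
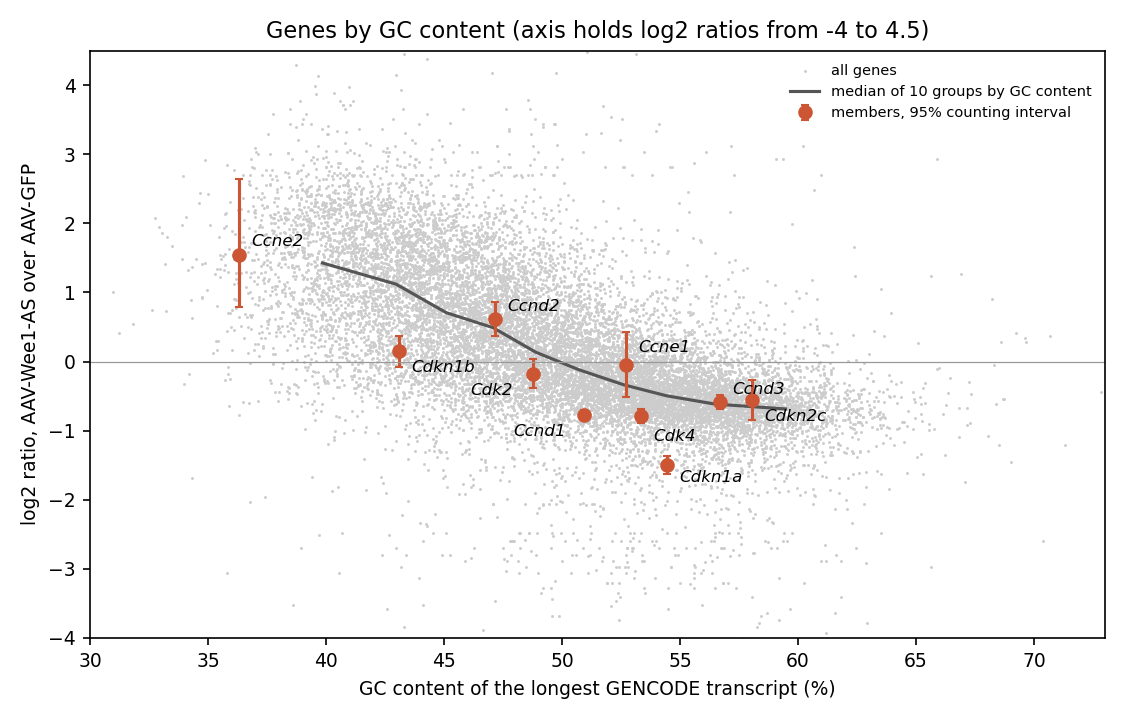
Log2 ratio of AAV-*Wee1-AS* over AAV-GFP against the GC content of the longest transcript for all genes with a GC value (grey), the median in 10 groups of equal size (line) and the members with 95% counting intervals (orange). The line runs from 1.43 in the lowest group to -0.69 in the highest, and *Cdkn1a*, *Ccnd1* and *Cdkn1b* lie below it by more than the others.

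The direction of all genes was related to base composition. Their median log2 ratio ran from 1.43 to 0.14 in the GC groups up to 49.8%. It ran from -0.12 to -0.69 in the groups above. Beside this, all 6 members with a GC content above the median of all genes had a log2 ratio below 0. Of the 4 members below that median, 3 had a log2 ratio above 0 and *Cdk2* was the exception. The counting intervals of *Ccne1*, *Cdk2* and *Cdkn1b* held an equal level, so the direction of these members is not settled. With the GC and length trends removed, none of the 10 was past 2-fold, against 15.9% of the 15105 genes with a GC value (7.35% above 2 and 8.57% below 0.5). The median log2 ratio of the members was -0.23. Then *Cdkn1b*, *Cdkn1a* and *Ccnd1* had the lowest values, -0.98, -0.91 and -0.70, and the other 7 lay from -0.32 to 0.43. With GC content from the matched transcript these 3 were at -0.45, -0.95 and -0.77, so the place of *Cdkn1b* depended on the transcript taken. The cause of the relation to GC content was not tested.

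Other genes that act in G1 were followed in 6 lists of 47 genes in all, all of which reached 10 counts in either library. Of these, 14 (29.8%) were past 2-fold, against 31.0% of all genes. In AAV-*Wee1-AS* 12 were above 2-fold and 2 below 0.5-fold, against 22.2% and 8.71% of all genes. The median log2 ratio was 0.42, which became 0.053 with the GC and length trends removed. Then 2 of the 47 were past 2-fold, against 15.9% of all genes with a GC value.

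Among the kinase partners, *Cdk6*, the other kinase of D-type cyclins, had 481 and 966 counts and a log2 ratio of 1.27 (1.11 to 1.43), opposite in sign to *Cdk4*. With the trends removed it was -0.16. *Cdk7*, *Ccnh* and *Mnat1*, which form the kinase that activates other CDKs, had log2 ratios of 0.88, 0.76 and 0.43. After removal of the trends they were 0.17, -0.41 and -0.92, so that *Ccnh* and *Mnat1* changed sign. *Cdc25a*, a phosphatase that activates CDK2, had one of -0.31, or -0.91 with the trends removed. *Ccna2*, cyclin A2, had 50 and 52 counts.

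Among the 13 pocket protein and E2F genes, 4 were above 2-fold and none below 0.5-fold, against 22.2% and 8.71% of all genes, and 0 were past 2-fold with the trends removed, against 15.9%. The retinoblastoma gene *Rb1* had 95 and 275 counts, a log2 ratio of 1.77 (1.46 to 2.15), and its relative *Rbl2* had 805 and 1763, one of 1.39 (1.27 to 1.52). *Tfdp2*, a partner of E2F factors, had one of 1.96 (1.75 to 2.20). With the trends removed these were 0.39, 0.74 and 0.80. *E2f1*, the activating factor, had 698 and 295 counts and a log2 ratio of -0.97 (-1.18 to -0.78), or -0.24 with the trends removed.

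Of the 13 genes for turnover of G1 cyclins and inhibitors, 5 were above 2-fold and none below 0.5-fold, against the same 22.2% and 8.71% of all genes. After removal 1 of the 13 was past 2-fold, against 15.9% of all genes. *Skp2*, which marks p27 for degradation, had 27 and 87 counts, a log2 ratio of 1.87 (1.31 to 2.63), and 0.77 with the trends removed. *Cul1*, the scaffold of the same ligase, had one of 1.48 (1.36 to 1.59), *Fbxw7*, which recognizes cyclin E, one of 1.38 (1.08 to 1.72) and *Cul4a* one of 1.38 (1.31 to 1.45). With the trends removed *Cul1* was at 0.69 and *Fbxw7* at 0.77, and *Cul4a* stayed past 2-fold at 1.22. *Ambra1*, which directs the degradation of D-type cyclins, had 2190 and 1398 counts, a log2 ratio of -0.38, or -0.18 with the trends removed.

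Of the 8 growth inputs to D-type cyclins, 2 were above 2-fold and 1 below 0.5-fold, where the shares of all genes were 22.2% and 8.71%. *Met*, the receptor of hepatocyte growth factor, had 1001 and 4252 counts, a log2 ratio of 2.35 (2.25 to 2.45), which was 1.25 with the trends removed. *Egfr*, the epidermal growth factor receptor, had one of 1.25 (1.21 to 1.31), which was -0.21 with the trends removed. *Foxm1*, a factor of proliferating cells, had 125 and 46 counts, one of -1.15 (-1.70 to -0.68), which was -0.86 and short of 2-fold with the trends removed. The FOXO factors, which can induce *Cdkn1b*, were within 2-fold, with log2 ratios of 0.24 for *Foxo1*, 0.49 for *Foxo3* and -0.20 for *Foxo4*. Their values after removal were -0.56, 0.39 and 0.35, so that *Foxo1* and *Foxo4* changed sign.

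The proliferation list, set beside the G1 genes as a readout of cycling cells, had 7 genes higher and 10 lower among the 17 past the count minimum. Of these, 1 was above 2-fold and 3 were below 0.5-fold, against 22.2% and 8.71% of all genes. The median log2 ratio was -0.10, or -0.27 with the GC and length trends removed. *Aurkb*, a mitotic kinase, had 87 and 20 counts and a log2 ratio of -1.77 (-2.64 to -1.14), or -1.30 with the trends removed. *Mki67*, the gene of the Ki-67 antigen, had 67 and 135 counts and a log2 ratio of 1.25 (0.84 to 1.72), or 0.096 with the trends removed. The other 2 below 0.5-fold were *Plk1*, a mitotic kinase, with a log2 ratio of -1.53, and *Ccnb2*, cyclin B2, with one of -1.15. *Cdk1*, the kinase of mitotic entry, had one of -0.54, or -0.97 with the trends removed. After removal 3 of the 17 were past 2-fold, against 15.9% of all genes, and all 3 were lower, namely *Ccnb1* (cyclin B1) at -1.71, *Aurkb* at -1.30 and *Ccnb2* at -1.09. *Bub1*, a mitotic checkpoint kinase of this list, was at 0 in both libraries.

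**Figure D5:**
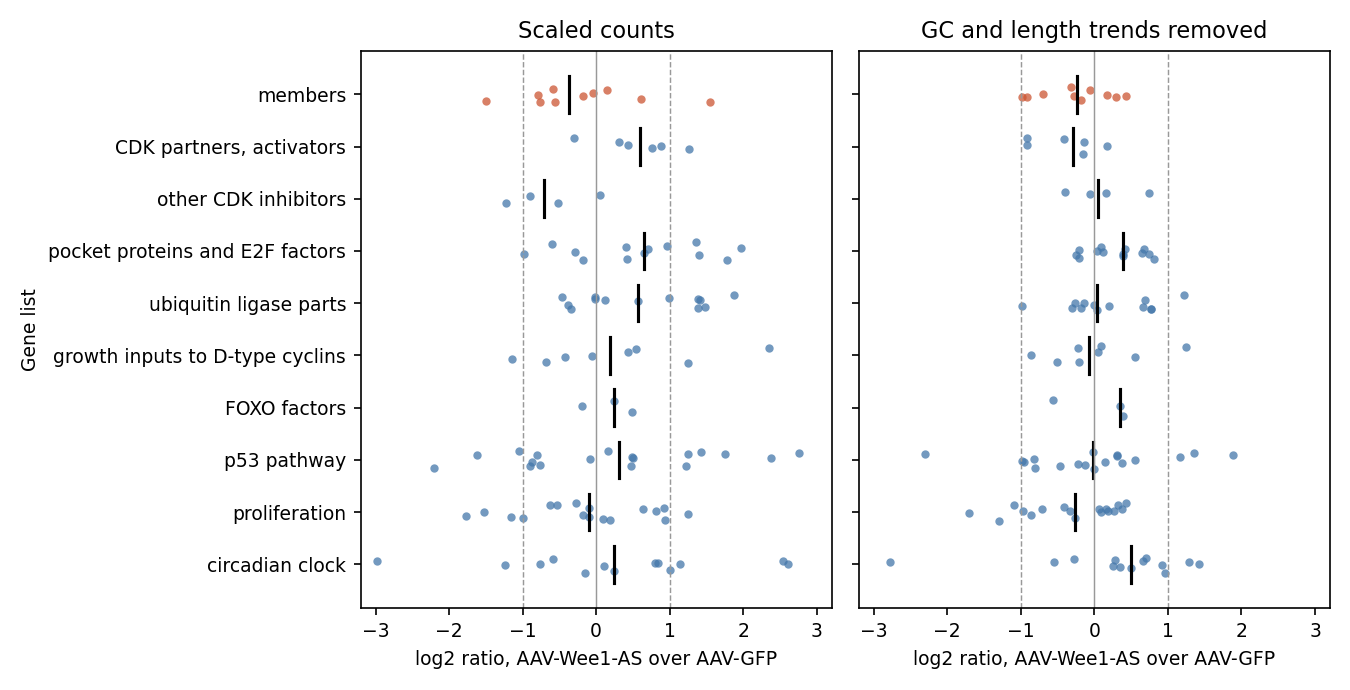
Log2 ratio of AAV-*Wee1-AS* over AAV-GFP for the members (orange) and for genes of 6 G1 lists and of the p53, proliferation and circadian clock lists (blue), from scaled counts (left) and with GC and length trends removed (right). Black bars are list medians and dashed lines 2-fold. On the left the highest medians are those of the pocket protein (0.66), CDK partner (0.59) and ubiquitin ligase (0.58) lists. That of the members is -0.37, and only that of the other CDK inhibitors (-0.71) lies lower. On the right the same lists are at 0.39, -0.28, 0.038, -0.23 (members) and 0.052.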

How the data were processed

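The deposited table gives, for each of 129299 RefSeq transcripts on mm10, the estimated count that the authors obtained, not normalized. The authors also deposited FPKM (per kilobase and library size) and TPM values (scaled to an equal sum). The submitters' processing notes name Trimmomatic 0.38, HISAT2 2.1.0, SAMtools 1.9 and StringTie 2.1.3b, with no role given. All were summed per gene symbol. Libraries were scaled by TMM (edgeR 4.0.16, R 4.3.3), with factors of 1.02 and 0.980, and log2 ratios took 2 as prior count. A gene was kept if either library reached 10 counts. Ratios have exact (Clopper-Pearson) 95% intervals and TPM levels exact Poisson intervals, for counting error only. GC content and length came from the longest GENCODE M21 transcript of the gene (15105 genes, 95.3%), and trends were removed by lowess (span 0.3, 5 cycles). These steps used Python 3.11.15, numpy 2.4.6, pandas 2.3.3, scipy 1.17.1, statsmodels 0.14.6 and matplotlib 3.10.9, and were tested on simulated counts. No tests were run, since each group had 1 library. The members and lists were chosen with earlier results of these data known. All members are named, and of each list at most 6 genes whose counting interval lay wholly past 2-fold, the largest first. Other list genes and cell markers were named after their values were seen. As alternatives, libraries were scaled by the upper quartile, by their totals, by totals leaving out the top 20 genes or by size factors of DESeq2 1.42.0. Others were a prior count of 0.5, FPKM or TPM with a pseudocount of 1, curated transcripts, the transcript with most counts, removal of the trends, and other count filters. GC content of the GENCODE transcript matched to the RefSeq transcript with most counts (11126 genes) was added after the data were seen. *Wee1-AS* was not analysed here.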

Additional observations from a re-analysis of the deposited data

How the results depend on the processing

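The number of members past 2-fold was 2, and it was 1 with FPKM values, with TPM values and with at least 50 counts in a library, which leaves *Ccne2* out. It was 0 with the GC and length trends removed, with GC content from the longest or from the matched transcript. It stayed at 2 in the other 10 settings. Of all genes, 4908 (31.0%) were past 2-fold, against 1336 (8.43%) with FPKM and 2046 (12.9%) with TPM. The share was 28.6% with at least 50 counts in a library. It was 15.9% (2404) with the trends removed, and 13% (1449 of 11126) with GC content from the matched transcript. In the other 10 settings it ran from 27% to 36.8%. The median log2 ratio of the members was below 0 in all 15 settings and moved most with the upper quartile, to -0.57, under which the median of all genes shifted by -0.20. The share of *Ccnd1* in the D-type cyclins was 62.2% with AAV-GFP and 56.4% with AAV-*Wee1-AS* when counts were not divided by length. A member changed sign against the reported value in 14 of 120 combinations of member and setting, 12 of them with trends in GC content or length removed. *Cdkn1a*, *Ccnd1* and *Cdk4* stayed lower in each setting, and *Ccne2* stayed higher in each setting that kept it. The size of the *Ccne2* log2 ratio was not stable. It was 0.065 with GC content from the matched transcript, 0.19 with FPKM, 0.34 with TPM and 4.32 with the transcript with most counts. No paired analysis was possible because each group has 1 library. With 15 and 40 counts, depth limits *Ccne2* most.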

Other observations

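Circadian clock genes, among which *Nr1d1* encodes the repressor REV-ERBα, lay on both sides of an equal level. Of the 13 genes, 4 were above 2-fold and 2 below 0.5-fold, against 22.2% and 8.71% of all genes. With the GC and length trends removed, 3 of the 13 were past 2-fold, against 15.9% of all genes. *Nr1d1* had 7777 counts with AAV-GFP and 2733 with AAV-*Wee1-AS*, a log2 ratio of -1.24 (95% counting interval -1.31 to -1.18), while its paralog *Nr1d2* had 666 and 3389, one of 2.61 (2.49 to 2.73). *Clock*, the positive factor, had one of 2.55 (2.33 to 2.80). *Npas2*, a relative of *Clock*, had 15 counts and 0, at least 4.16-fold lower against a floor of 3 counts. With the GC and length trends removed, the log2 ratios of *Nr1d1*, *Nr1d2* and *Clock* were -0.55, 1.28 and 0.66. The hour at which the livers were taken is not given in the sources used here.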
